A study of Mus musculus with 12 samples.

Results

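A set of 59 genes that act in the cell cycle and in DNA replication was followed across 4 conditions of a mouse palate mesenchyme cell line, in which the splicing factor Srsf3 had been knocked down or not and PDGF-AA had been added or not. The genes were chosen by symbol from the 51490 genes of the deposited table, and all 59 were among the 15037 genes that passed the low-count filter. By role, 8 act in origin licensing, 5 in DNA synthesis, 9 are cyclins and kinases of G1 and S phase, 6 belong to the E2F and Rb families, 3 are inhibitors of cyclin-dependent kinases (CDKs), 8 act in mitotic entry, 13 at the spindle and kinetochore, and 7 in cytokinesis and chromosome organization.

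The cells were iMEPM cells, an immortalized line of embryonic palatal mesenchyme that was made from a Cdkn2a-/- embryo and is used as a model of the tissue of the secondary palate. Cdkn2a encodes the inhibitors p16Ink4a and p19Arf, so that its deletion in the parent line is shared by all 4 groups. The cells carried a lentiviral scramble shRNA (scramble) or an shRNA against Srsf3 (shSrsf3), and after serum starvation each line was left without ligand (-PDGF-AA) or was given PDGF-AA at 10 ng/mL for 1 hr (+PDGF-AA). Polyadenylated RNA of 3 biological replicates per group was sequenced. Each shRNA was represented by 1 cell line and Srsf3 was targeted by 1 shRNA, so that the effect of the knockdown and any other difference between the lines cannot be told apart.

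The cell cycle is driven by CDKs that are switched on by cyclins and held back by CDK inhibitors. In G1, cyclin D with Cdk4 or Cdk6 phosphorylates the Rb proteins, which releases the E2F factors to transcribe genes for licensing origins and making DNA, and Rb proteins in resting cells hold these genes silent. A later group of genes, needed for mitotic entry, the spindle and cytokinesis, is transcribed mainly in G2 through the MuvB complex with B-Myb and Foxm1. Mesenchymal cells that are deprived of serum tend to leave the cycle, and PDGF is a classical mitogen for such cells.

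Total counts ranged from 30958966 to 76123359 per sample, and the members took up between 0.416% and 0.504% of them. Srsf3 itself was lower in every shSrsf3 sample, with 206 ± 6.59 and 162 ± 1.46 CPM (each count as a share of its normalized library size; mean ± SD, n = 3) in scramble and shSrsf3 cells without ligand (log2 fold change -0.34) and 222 ± 8.07 and 164.9 ± 4.33 CPM with ligand (-0.43). These are RNA levels, and the authors also reported a fall of Srsf3 protein in the shSrsf3 line by western blot. All 9 markers of mesenchyme were detected, although the palate genes Msx1 and Osr2 had means of only 1.22 and 3.65 CPM. The summed markers of epithelium (2.86 to 6.15 CPM), endothelium (0.727 to 2.70), blood (0.814 to 1.68), nerve and Schwann cells (20.5 to 32.3, mostly Tubb3) and skeletal muscle (0 to 0.0518) were far below those of mesenchyme (31515 to 37042). In 3 libraries, namely scramble replicate 2 of both ligand conditions and scramble replicate 1 of the condition without ligand, a smaller share of read pairs had been assigned to transcripts than in the others, and results are given with and without them where this changed a call.

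To determine how these genes differ with Srsf3, shSrsf3 samples were compared with scramble samples under the same ligand condition. In the absence of ligand, 37 of the 59 genes were higher in shSrsf3 cells and 6 were lower at an adjusted p of 0.05 or less (edgeR's quasi-likelihood test, Benjamini-Hochberg adjustment over all genes tested), where 22.2% of all genes tested were higher and 23.7% were lower. In the presence of ligand, 34 genes were higher and 5 were lower, beside 20.3% and 20.7% of all genes tested. The median log2 fold change of the members was 0.25 without and 0.32 with ligand, while that of all genes was -0.02 and -0.01. Most differences were modest in size. A 2-fold difference with an adjusted p of 0.05 or less was found for 0 members without ligand and for 1, Ccnb2, with ligand, and for 5.75% and 5.42% of all genes tested.

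The values of the shSrsf3 and scramble samples did not overlap for 48 of the 59 genes without ligand and for 44 with ligand, against 53.3% and 52.6% of all genes tested. In total, 32 genes were called higher in both ligand conditions, 5 were called lower in both, 14 were called in neither, 6 were called without ligand only and 2 with ligand only, and no gene was called in opposite directions. The same counts were not made over all genes tested, so that they describe the members only. The 32 genes comprised 27 of the 28 mitotic members, meaning those of mitotic entry, the spindle and cytokinesis, together with Tk1, Tyms, Ccnd3, Ccna2 and Cdk2. Of the other 31 members, 10 were higher and 6 lower without ligand (median log2 fold change 0.06) and 7 were higher and 5 lower with ligand (0.04). In RNA from whole cultures, a larger share of cells in a stage of the cycle and more RNA per cell cannot be told apart.

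**Figure D1:**
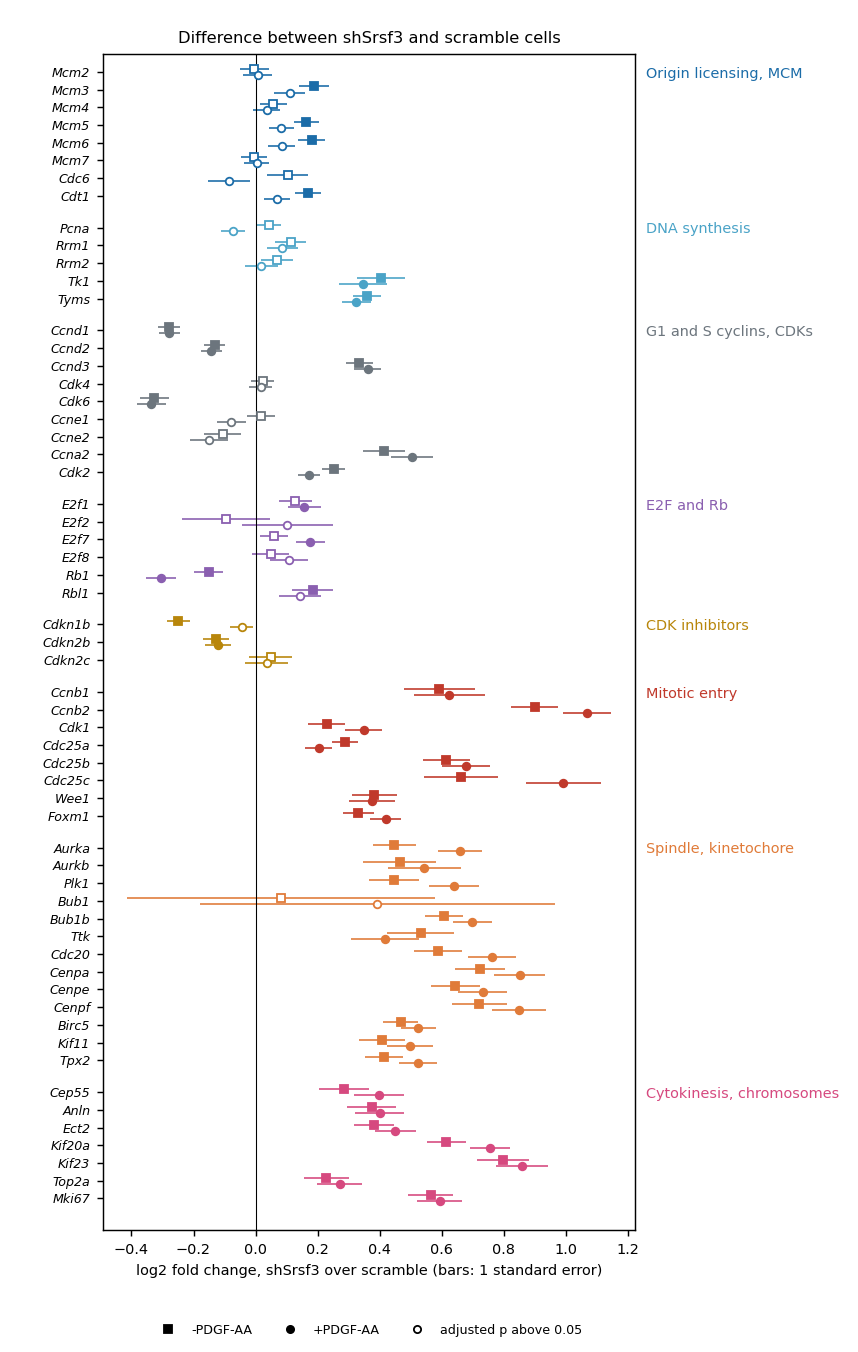
Log2 fold changes of the 59 genes between shSrsf3 and scramble samples (horizontal axis) without ligand (squares) and with ligand (circles), grouped by role, with bars of 1 standard error and filled symbols for an adjusted p of 0.05 or less. The mitotic genes at the bottom lie to the right of 0, up to 1.07 for Ccnb2 with ligand, whereas the licensing genes lie near 0 and Ccnd1, Ccnd2, Cdk6 and Rb1 to the left.

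All 8 genes of mitotic entry were higher in shSrsf3 cells in both ligand conditions, with median log2 fold changes of 0.49 and 0.52. Ccnb2 encodes cyclin B2, a partner of Cdk1 in mitosis, and had the largest difference of all 59 members. Without ligand, its level was 16.4, 19.2 and 20.7 CPM in the 3 scramble samples and 34.2, 35.87 and 35.5 CPM in the 3 shSrsf3 samples. This is a 1.86-fold difference (log2 fold change 0.90, SE 0.0757, adjusted p = 5.48e-07), and the lowest shSrsf3 sample lay well above the highest scramble sample. With ligand, the levels were 18.9, 16.7 and 19.2 CPM in scramble and 36.5, 37.4 and 41.2 CPM in shSrsf3 samples, a 2.10-fold difference (log2 fold change 1.07, SE 0.0762, adjusted p = 1.23e-07).

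Cdc25c, a phosphatase that removes the inhibitory phosphates from Cdk1, was measured at 4.29, 5.20 and 5.24 CPM in scramble and 8.11, 7.76 and 7.46 CPM in shSrsf3 samples without ligand (log2 fold change 0.66, SE 0.1199, adjusted p = 5.46e-04). With ligand, it was at 4.53, 3.44 and 5.10 CPM in scramble and 8.74, 8.21 and 9.14 CPM in shSrsf3 samples (log2 fold change 0.99, SE 0.122, adjusted p = 2.15e-05). The groups did not overlap in either condition. The difference with ligand lay just under the 2-fold limit and passed it when scramble +PDGF-AA replicate 1 or 3 or shSrsf3 +PDGF-AA replicate 2 was left out, and it was 0.85 without scramble +PDGF-AA replicate 2.

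The related phosphatase Cdc25b differed by 0.61 without and 0.68 with ligand on the log2 scale, and Cdc25a, which also acts on Cdk2 at the start of S phase, by 0.29 and 0.20. Wee1, the kinase that opposes the Cdc25 proteins by phosphorylating Cdk1, was also higher, by 0.38 and 0.38. Ccnb1, the other mitotic cyclin B, differed by 0.59 and 0.62, Foxm1, a transcription factor of G2 and M phase genes, by 0.33 and 0.42, and Cdk1, the mitotic kinase itself, by 0.23 and 0.35. Thus activators and the inhibitor of Cdk1 were both higher in shSrsf3 cells. Of the 31-base stretches in the transcripts of Ccnb1, 23.7% also occur in transcripts of other genes, so that its reads could have been divided among copies.

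Of the 13 genes of the spindle and kinetochore, 12 were higher in shSrsf3 cells in both conditions, with median log2 fold changes of 0.47 and 0.64. Cenpa encodes the histone H3 variant that marks centromeres. Its level was 13.7, 15.2 and 16.6 CPM in scramble and 24.6, 24.3 and 26.8 CPM in shSrsf3 samples without ligand (log2 fold change 0.72, SE 0.0799, adjusted p = 7.56e-06), and 15.05, 13.6 and 15.5 and 24.7, 25.5 and 29.6 CPM with ligand (0.85, SE 0.0807, adjusted p = 1.91e-06). Cenpf, a large protein of the outer kinetochore, was at 29.3, 26.05 and 33.1 CPM in scramble and 47.04, 46.2 and 53.2 CPM in shSrsf3 samples without ligand (0.72, SE 0.0877, adjusted p = 1.80e-05), and at 32.8, 28.6 and 34.2 and 53.7, 58.3 and 60.2 CPM with ligand (0.85, SE 0.0875, adjusted p = 4.16e-06). In both genes and both ligand conditions, the groups were fully separated.

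The kinetochore motor Cenpe differed by 0.64 without and 0.73 with ligand on the log2 scale. Cdc20, the activator of the anaphase-promoting complex, differed by 0.59 and 0.76, and Bub1b, the checkpoint protein BubR1 that restrains Cdc20, by 0.61 and 0.70. Of the 31-base stretches of Cdc20, 22.7% occur in other genes. The checkpoint kinase Ttk (Mps1) differed by 0.53 and 0.42. Activators and inhibitors of anaphase were hence higher side by side, as at mitotic entry.

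Among the mitotic kinases, Aurka, which acts at centrosomes and spindle poles, differed by 0.45 and 0.66, and Plk1, a kinase of mitotic entry and exit, by 0.45 and 0.64. Aurkb and Birc5 (survivin), 2 subunits of the chromosomal passenger complex, differed by 0.46 and 0.54 and by 0.47 and 0.52. Tpx2, which activates Aurora A on spindle microtubules, differed by 0.41 and 0.52, and Kif11, the motor that separates the spindle poles, by 0.41 and 0.50.

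The exception was Bub1, a checkpoint kinase of the kinetochore, which had only 3 to 19 counts per sample. Its log2 fold changes of 0.08 and 0.39 had standard errors of 0.496 and 0.573 (adjusted p = 0.909 and 0.624), so that a difference of the size seen in its neighbours was not detectable at these counts. In the same libraries Bub1b had 1029 to 3145 counts, and why those of Bub1 were so low was not tested. None of the 31-base stretches of Bub1 (0%) occur in other genes.

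All 7 genes of cytokinesis and chromosome organization were higher in shSrsf3 cells in both conditions, with median log2 fold changes of 0.38 and 0.45. Kif23, a kinesin of the central spindle, was at 32.01, 30.99 and 35.4 CPM in scramble and 55.5, 53.9 and 62.01 CPM in shSrsf3 samples without ligand (log2 fold change 0.80, SE 0.0832, adjusted p = 4.30e-06). With ligand, it was at 37.4, 31.3 and 36.3 and 60.3, 59.7 and 70.6 CPM (0.86, SE 0.0831, adjusted p = 2.26e-06). The lowest shSrsf3 value exceeded the highest scramble value by more than the range of the scramble samples in each condition.

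Kif20a, a kinesin that brings Plk1 to the central spindle, differed by 0.61 and 0.76, and Mki67, which coats mitotic chromosomes and is widely used as a marker of proliferation, by 0.56 and 0.59. Ect2, the exchange factor that activates RhoA at the cleavage furrow, differed by 0.38 and 0.45, and the furrow scaffold Anln by 0.37 and 0.40. Cep55, which acts in the final separation of daughter cells, differed by 0.29 and 0.40, and Top2a, the topoisomerase that untangles sister chromatids, by 0.23 and 0.27.

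The calls of Top2a and Cep55 depended on single libraries or on those of lower mapping rate. Without the 3 libraries of lower mapping rate, which leaves 1 scramble sample without ligand whose spread is assumed to be that of the other groups, 25 of the 28 mitotic genes remained higher in the absence of ligand, at a median of 0.38 in place of 0.47. Top2a (0.10, adjusted p = 0.237) and Cep55 (0.16, adjusted p = 0.122) were then no longer called. Top2a was also lost when scramble -PDGF-AA replicate 1 (adjusted p = 0.0740) or 2 (0.0807) or shSrsf3 -PDGF-AA replicate 3 (0.0729) was left out alone. With ligand, 27 of 28 were called in every such fit, at medians between 0.50 and 0.66.

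**Figure D2:**
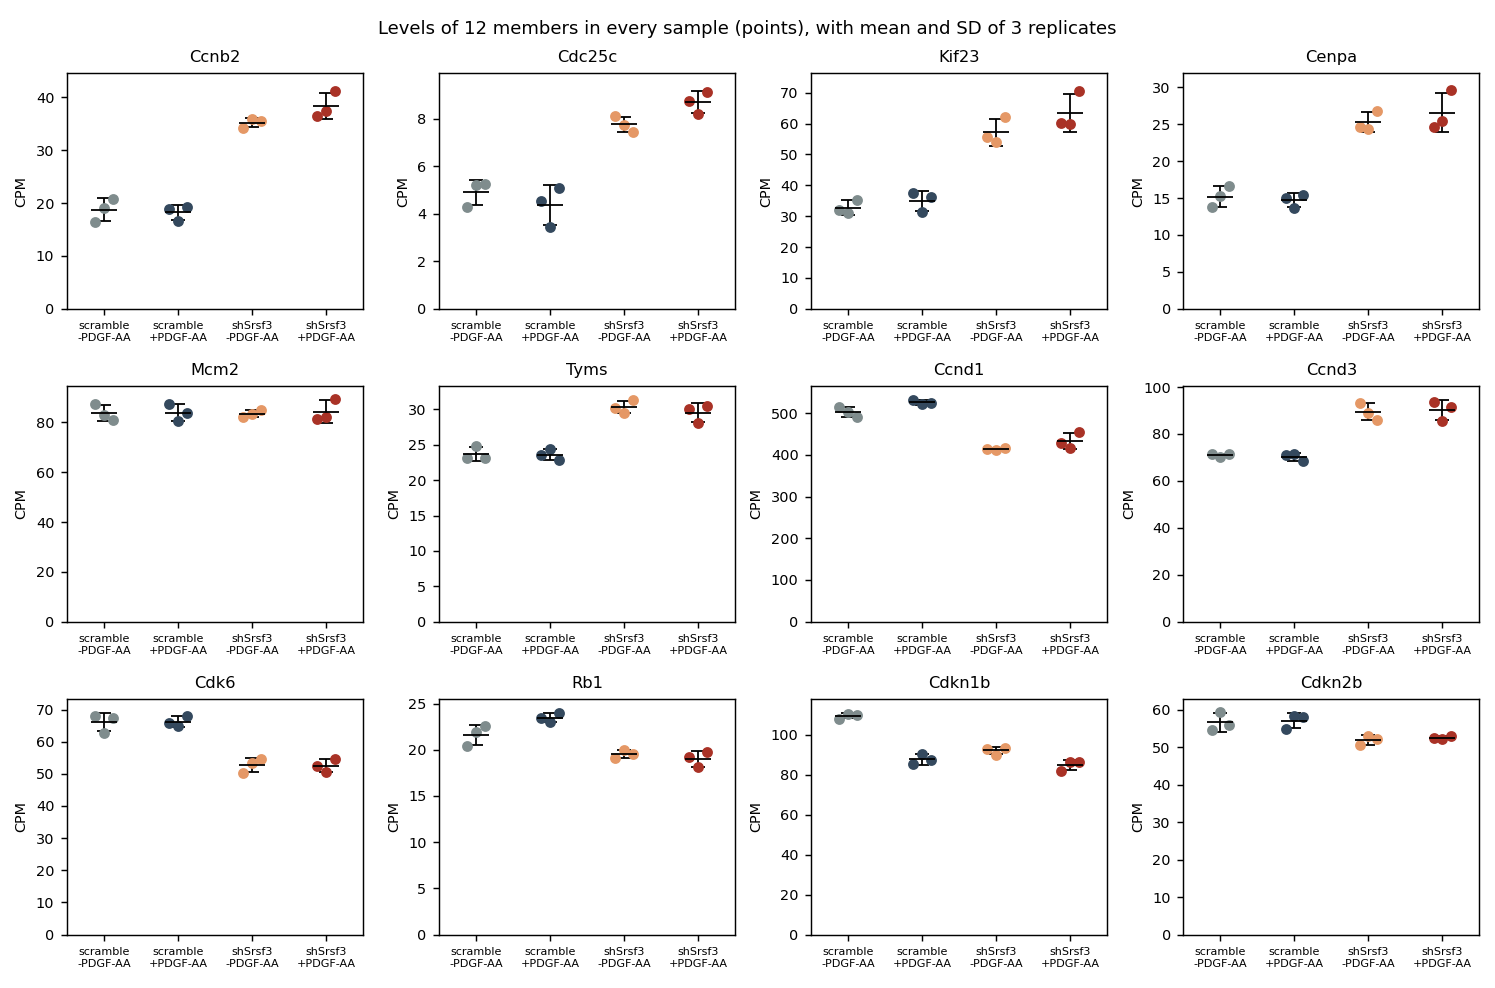
Levels in CPM (vertical axes, from 0) of 12 of the genes in each of the 12 samples (points), with the mean and SD of the 3 replicates of each group. Ccnb2, Cdc25c, Kif23 and Cenpa are higher in every shSrsf3 sample than in any scramble sample, Mcm2 lies between 80.6 and 89.6 CPM in all groups, Ccnd1 and Cdk6 are lower in shSrsf3 cells, and Cdkn1b is highest in scramble cells without ligand, at 107.9 to 110.4 CPM.

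The 8 genes of origin licensing had log2 fold changes between -0.09 and 0.19. Without ligand, 4 of them were higher in shSrsf3 cells, with a median log2 fold change of 0.13 over the 8, and with ligand 0 were higher or lower, with a median of 0.05. The 6 Mcm genes encode the subunits of 1 ring, the replicative helicase. Of these, Mcm3, Mcm5 and Mcm6 differed by 0.19, 0.16 and 0.18 without ligand (adjusted p = 0.00653, 0.00466 and 0.00368) and by 0.11, 0.08 and 0.08 with ligand (0.0914, 0.1205 and 0.141). Mcm3 was called higher with ligand when scramble +PDGF-AA replicate 1 was left out (0.16, adjusted p = 0.0147).

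Mcm2, Mcm4 and Mcm7 were called in neither condition. Of the 31-base stretches of Mcm7, 19.6% occur in other genes. Mcm2 was at 87.3, 82.8 and 81.1 CPM in scramble and 82.1, 83.3 and 84.97 CPM in shSrsf3 samples without ligand, with groups that overlapped and a log2 fold change of 0.00 (SE 0.0469). Cdt1, which loads the helicase onto origins, differed by 0.17 without ligand (adjusted p = 0.00524) and 0.07 with ligand (0.227), and its partner Cdc6 by 0.10 and -0.09 (0.222 and 0.338). The call for Cdt1 was not kept without the 3 libraries of lower mapping rate (0.10, adjusted p = 0.187).

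Of the 5 genes of DNA synthesis, the 2 that make thymidylate were higher in both conditions. Tyms, thymidylate synthase, was at 23.2, 24.8 and 23.1 CPM in scramble and 30.3, 29.5 and 31.3 CPM in shSrsf3 samples without ligand (log2 fold change 0.36, SE 0.0453, adjusted p = 2.60e-05), and at 23.5, 24.4 and 22.8 and 30.01, 28.03 and 30.5 CPM with ligand (0.32, adjusted p = 7.41e-05). Tk1, the thymidine kinase of the salvage route, differed by 0.40 and 0.35 (adjusted p = 7.94e-04 and 0.00279). The groups overlapped in neither gene. The 2 subunits of ribonucleotide reductase, Rrm1 and Rrm2, differed by 0.11 and 0.07 without ligand and by 0.09 and 0.02 with ligand, and the sliding clamp Pcna by 0.04 and -0.07, none of which passed the test. Pcna was called lower with ligand without the 3 libraries of lower mapping rate (-0.11, adjusted p = 0.0232) and without scramble +PDGF-AA replicate 2 (-0.11, adjusted p = 0.0399). Rrm1 was called higher without ligand when scramble -PDGF-AA replicate 3 was left out (0.16, adjusted p = 0.0239) and with a replicate block (0.11, adjusted p = 0.0438). Of the 31-base stretches of Pcna, 22% occur in other genes.

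**Figure D3:**
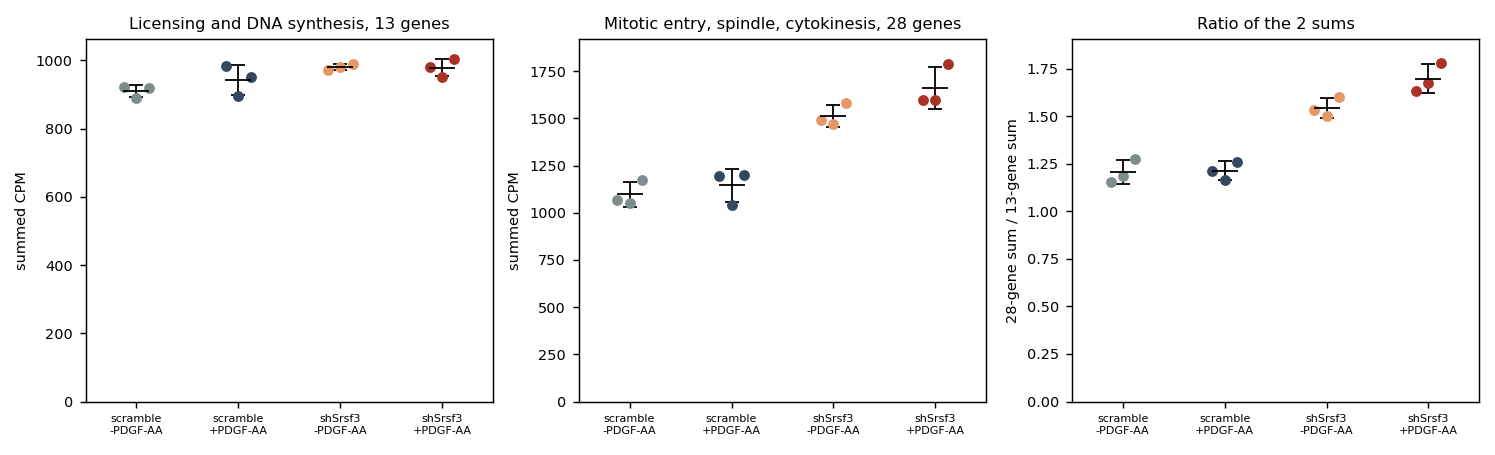
Summed CPM of the 13 licensing and DNA synthesis genes (left), of the 28 mitotic genes (middle) and the ratio of the second sum to the first (right) in each sample, with the mean and SD of 3 replicates. The ratio lies between 1.16 and 1.27 in the 6 scramble samples and between 1.499 and 1.78 in the 6 shSrsf3 samples.

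Within each sample, the mitotic genes were summed and set against the licensing and DNA synthesis genes. The mitotic sum was 1066, 1053 and 1172 CPM in scramble and 1491, 1472 and 1581 CPM in shSrsf3 samples without ligand, and 1192, 1043 and 1199 CPM in scramble and 1598, 1597 and 1789 CPM in shSrsf3 samples with ligand. The sum over the 13 licensing and synthesis genes had a narrower span, from 889 to 922 CPM in scramble and 973 to 989 CPM in shSrsf3 samples without ligand, and from 897 to 983 and 952 to 1005 CPM with ligand, where the groups overlapped. The ratio of both sums was hence 1.21 ± 0.0616 in scramble and 1.54 ± 0.0508 in shSrsf3 cells without ligand (mean ± SD, n = 3), and 1.21 ± 0.0491 and 1.70 ± 0.0769 with ligand. These sums weigh each gene by its own count and are given as a description.

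The cyclins and kinases of G1 and S phase were divided. Of the 9 genes, 3 were higher (Ccnd3, Ccna2 and Cdk2) and 3 lower (Ccnd1, Ccnd2 and Cdk6) in both ligand conditions, with median log2 fold changes of 0.02 and -0.08. The 3 cyclin D genes, whose products are alternative partners of Cdk4 and Cdk6, did not differ in the same direction. Ccnd1 was at 514, 502 and 491 CPM in scramble and 414, 412 and 417 CPM in shSrsf3 samples without ligand (log2 fold change -0.28, SE 0.0348, adjusted p = 2.28e-05), and at 532, 522 and 523 and 429, 418 and 454 CPM with ligand (-0.28, SE 0.0348, adjusted p = 2.52e-05). The highest shSrsf3 sample of all 6 was below the lowest scramble sample.

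Ccnd2 was lower by a smaller margin, with 914, 885 and 833 CPM in scramble and 796, 808 and 798 CPM in shSrsf3 samples without ligand (log2 fold change -0.13, SE 0.0342, adjusted p = 0.00656) and 927, 926 and 923 and 830.3, 827 and 857 CPM with ligand (-0.14, SE 0.0342, adjusted p = 0.00422). Without the 3 libraries of lower mapping rate, its difference in the absence of ligand was -0.06 (adjusted p = 0.206). Ccnd3 went the other way, from 71.3, 70.4 and 71.3 CPM in scramble to 93.4, 88.9 and 86.1 CPM in shSrsf3 samples without ligand (0.33, SE 0.0428, adjusted p = 2.84e-05) and from 70.99, 71.3 and 68.4 to 93.6, 85.7 and 91.5 CPM with ligand (0.36, SE 0.0430, adjusted p = 1.57e-05). The groups of Ccnd3 were separated in both conditions.

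Cdk6 had the largest fall among the members, from 67.96, 62.9 and 67.4 CPM to 50.3, 53.3 and 54.6 CPM without ligand (log2 fold change -0.33, SE 0.0463, adjusted p = 7.24e-05) and from 65.9, 64.97 and 68.03 to 52.4, 50.5 and 54.6 CPM with ligand (-0.34, SE 0.0467, adjusted p = 6.28e-05). Its relative Cdk4, which binds the same cyclins, was at overlapping levels, with log2 fold changes of 0.02 and 0.02. Cyclin A2 (Ccna2), which pairs with Cdk2 in S phase and with Cdk1 in G2, differed by 0.41 and 0.50 (adjusted p = 2.44e-04 and 4.93e-05), and Cdk2 by 0.25 and 0.17 (7.83e-05 and 0.00178). The cyclins E, which drive entry into S phase, did not pass the test, with 0.02 and -0.08 for Ccne1 and -0.11 and -0.15 for Ccne2. With ligand, Ccne2 was called lower when shSrsf3 +PDGF-AA replicate 3 was left out (-0.23, adjusted p = 0.00553) and with no low-count filter (-0.16, adjusted p = 0.0451).

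Among the 6 members of the E2F and Rb families, Rb1, the retinoblastoma protein, was lower in shSrsf3 cells. Its levels were 20.4, 21.95 and 22.5 CPM in scramble and 19.1, 19.95 and 19.5 CPM in shSrsf3 samples without ligand (log2 fold change -0.15, SE 0.0470, adjusted p = 0.0182), and 23.5, 23.002 and 23.99 and 19.2, 18.1 and 19.8 CPM with ligand (-0.31, SE 0.0480, adjusted p = 1.86e-04). The groups were separated in both, but the call without ligand was lost on leaving out scramble replicate 2 (adjusted p = 0.0627) or 3 (0.1003) or shSrsf3 replicate 1 (0.0756) or 3 (0.0536), whereas that with ligand was not lost on leaving out any sample.

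The related Rbl1 (p107) was higher by 0.18 without ligand (adjusted p = 0.0356) and differed by 0.14 with ligand (0.108), where it was called with a replicate block (0.0344). Its call without ligand was lost without scramble -PDGF-AA replicate 1 (adjusted p = 0.0542) or 2 (0.162) or shSrsf3 -PDGF-AA replicate 1 (0.1005) or 3 (0.103). It was also lost with only the 2 groups compared (0.0590), and without the 3 libraries of lower mapping rate the difference was 0.09. E2f1, an activating E2F, differed by 0.13 without ligand (0.0629) and was higher by 0.16 with ligand (0.0302), a call that was lost without scramble +PDGF-AA replicate 2 (adjusted p = 0.0544) or 3 (0.128) or shSrsf3 +PDGF-AA replicate 2 (0.1201) or 3 (0.0613) and at equal depth (0.0826). Without ligand, E2f1 was called higher without the 3 libraries of lower mapping rate (0.22, adjusted p = 0.0276), with RLE size factors (0.0494), at equal depth (0.0314) and without shSrsf3 -PDGF-AA replicate 1 (0.0442). E2f7, a repressing E2F, differed by 0.06 (0.318) and was higher by 0.18 with ligand (0.00753). E2f8, the other atypical repressor, and E2f2 were called in neither condition, with 0.05 and 0.11 and with -0.10 and 0.10.

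Of the 3 CDK inhibitors, 2 were lower without ligand and 1 with ligand, and 0 were higher. Cdkn1b (p27Kip1), which binds and inhibits cyclin E with Cdk2, accumulates in resting cells. It was at 108, 110.4 and 110.1 CPM in scramble and 92.9, 90.1 and 93.5 CPM in shSrsf3 samples without ligand (log2 fold change -0.25, SE 0.0372, adjusted p = 1.12e-04). With ligand, it was at 85.2, 90.3 and 87.5 CPM in scramble and 82.00, 86.4 and 86.5 CPM in shSrsf3 samples, which overlapped (-0.05, SE 0.0375, adjusted p = 0.370).

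Cdkn2b (p15Ink4b), an inhibitor of Cdk4 and Cdk6 encoded beside Cdkn2a, was at 54.5, 59.5 and 56.1 CPM in scramble and 50.6, 52.98 and 52.3 CPM in shSrsf3 samples without ligand (log2 fold change -0.13, SE 0.0417, adjusted p = 0.0243), and at 54.98, 58.3 and 58.2 and 52.4, 52.2 and 53.1 CPM with ligand (-0.12, SE 0.0420, adjusted p = 0.0344). Without ligand, the call was lost on leaving out scramble replicate 2 (-0.09, adjusted p = 0.132) or shSrsf3 replicate 1 (0.0963) or 3 (0.0571), and without the 3 libraries of lower mapping rate (-0.12, adjusted p = 0.0962). It was also lost there with no low-count filter (0.0605) and with only the 2 groups compared (0.0719). With ligand, it was lost without scramble replicate 2 (0.0972) or 3 (0.110) or any 1 of the 3 shSrsf3 replicates (0.0927, 0.0945 and 0.0643), and with no low-count filter (0.0582). Cdkn2c (p18Ink4c) was called in neither condition, with log2 fold changes of 0.05 and 0.04, but was called higher without ligand when scramble -PDGF-AA replicate 3 was left out (0.16, adjusted p = 0.0351).

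Promoters of mitotic genes, which were higher in shSrsf3 cells, and of licensing genes, which differed less, are shown here with 3 motifs known from cell cycle genes. These are the CHR (TTTGAA or TTCGAA), which the MuvB complex binds, the CCAAT box (CCAAT), which NF-Y binds, and a form of the E2F site (TTTCCCGC, TTTGGCGC or TTTCGCGC). Both strands were searched from 250 bases before to 50 bases after the start of the gene's canonical transcript in the GENCODE annotation of GRCm39. For 4 mitotic and 2 licensing genes, a stretch before the start is printed below 5′ to 3′ on the gene's own strand. The matched letters of either strand are in capitals, and some matches in the searched window lie outside the stretches. Ccnb2 lies at chr9:70328875-70329014 (minus strand), Aurkb at chr11:68936342-68936466 (plus strand), Cdk1 at chr10:69188773-69188878 (minus strand), Bub1b at chr2:118428499-118428589 (plus strand), Mcm5 at chr8:75835975-75836125 (plus strand) and Mcm6 at chr1:128287517-128287562 (minus strand).
Ccnb2: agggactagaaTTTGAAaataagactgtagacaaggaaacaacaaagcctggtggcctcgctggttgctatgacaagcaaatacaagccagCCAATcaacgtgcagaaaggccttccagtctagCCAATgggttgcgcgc
Aurkb: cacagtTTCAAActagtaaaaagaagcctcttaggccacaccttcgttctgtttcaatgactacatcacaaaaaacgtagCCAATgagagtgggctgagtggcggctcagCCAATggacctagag
Cdk1: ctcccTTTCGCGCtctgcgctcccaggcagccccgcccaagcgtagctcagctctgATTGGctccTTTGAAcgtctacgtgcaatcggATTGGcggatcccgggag
Bub1b: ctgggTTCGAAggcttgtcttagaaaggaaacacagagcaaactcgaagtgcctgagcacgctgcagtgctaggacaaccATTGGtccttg
Mcm5: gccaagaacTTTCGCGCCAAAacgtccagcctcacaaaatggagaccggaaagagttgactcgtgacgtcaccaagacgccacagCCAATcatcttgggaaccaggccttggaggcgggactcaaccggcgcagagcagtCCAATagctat
Mcm6: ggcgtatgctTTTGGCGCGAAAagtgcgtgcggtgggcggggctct

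In Ccnb2, the gene with the largest difference, a CHR begins 129 bases and CCAAT boxes begin 49 and 16 bases before the start. In Aurkb, a CHR is read on the other strand (TTCAAA) at 119 bases before the start, ahead of CCAAT boxes at 45 and 15 bases. Outside the printed stretches, a CHR match also begins after the start in Ccnb2 (base 43), Aurkb (base 8) and Cdk1 (base 12). Further CCAAT boxes begin 181 (Aurkb) and 182 (Cdk1) bases before the start and, in Ccnb2, at base 18 after it. Cdk1 holds all 3 motifs, and in Bub1b a CHR begins at 180 bases and an inverted CCAAT box at 105 bases before the start. In Mcm5 and Mcm6 the E2F letters are found on both strands in matches that overlap each other (from 156 and 152, and from 100 and 96 bases before the start), and the stretches hold no CHR. Outside its printed stretch, Mcm6 holds CCAAT boxes at 47 and 4 bases and a further E2F match at 37 bases before the start.

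Over all members, a CHR was found in the promoters of 16 of the 28 mitotic genes (57.1%) and 5 of the other 31 (16.1%), against 18.8% of 21738 promoters of protein-coding genes. A CCAAT box was found in 20 (71.4%) and 16 (51.6%), against 39.9%, and both together in 13 (46.4%) and 3 (9.68%), against 8.23%. The E2F letters had the opposite distribution, with 2 of the 28 mitotic genes (7.14%) and 14 of the other 31 (45.2%), against 2.33% of all promoters. They occurred in 6 of the 8 licensing genes and in all 6 genes of the E2F and Rb families, but in 0 of the 5 genes of DNA synthesis, where these letters were absent from the searched window. CHR matches were found in 6 of 7 genes of cytokinesis, 7 of 13 of the spindle and 3 of 8 of mitotic entry. These matches are a description of the sequence, and no binding was measured.

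To determine how the same genes respond to the ligand, +PDGF-AA samples were compared with -PDGF-AA samples of the same line. In scramble cells, 0 members were higher and 1, Cdkn1b, was lower, where 2% of all genes tested were higher and 2.04% were lower. Of the members, 6 had an unadjusted p under 0.05, as did 2643 of the 15037 genes tested. In shSrsf3 cells, 0 members were higher and 0 lower in edgeR's test, beside 0.426% and 0.14% of all genes tested, and DESeq2 likewise called 0. There, 7 members and 1420 of the 15037 genes tested had an unadjusted p under 0.05. The median log2 fold changes of the members were 0.03 and 0.05. The samples without ligand enter both this comparison and the knockdown comparison above, so that their values are not independent of it.

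Cdkn1b fell upon ligand stimulation in scramble cells from 108, 110.4 and 110.1 to 85.2, 90.3 and 87.5 CPM, a log2 fold change of -0.32 (SE 0.0372, adjusted p = 2.78e-04), with no overlap. In shSrsf3 cells the levels were 92.9, 90.1 and 93.5 CPM without and 82.00, 86.4 and 86.5 CPM with ligand, which did not overlap either, and the log2 fold change was -0.12 (SE 0.0375, adjusted p = 0.265). The difference between the responses was 0.20 (SE 0.0527, unadjusted p = 0.00189, adjusted p = 0.603), so that they were not shown to differ after adjustment over all genes. Of the 4 groups, scramble cells without ligand had the highest Cdkn1b in all 3 samples, and those of the other 3 groups lay between 82.00 and 93.5 CPM.

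The next smallest adjusted p in scramble cells were those of Cdc25a, Rb1, Pcna and Mki67. Cdc25a was at 32.4, 32.9 and 33.5 CPM without and 37.8, 33.9 and 36.3 CPM with ligand (log2 fold change 0.13, SE 0.0430, adjusted p = 0.128), and it was called higher when scramble +PDGF-AA replicate 2 was left out (0.17, adjusted p = 0.0366). Rb1 differed by 0.12 (SE 0.0464, adjusted p = 0.204). Pcna was at 103, 99.1 and 102 CPM without and 114, 103 and 108 CPM with ligand (0.10, SE 0.0387, adjusted p = 0.204), and Mki67 was at 126, 113 and 134 CPM and 137, 131 and 153 CPM (0.17, SE 0.0729, adjusted p = 0.237). The values of Mki67 overlapped, while those of Cdc25a, Rb1 and Pcna did not. For Pcna, the highest sample without ligand (103.294 CPM) lay only just below the lowest with ligand (103.298 CPM). Overlap was not counted over all genes for the ligand comparisons.

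In shSrsf3 cells, Aurka had the smallest adjusted p, at 22.3, 21.03 and 23.03 CPM without and 25.5, 24.1 and 27.9 CPM with ligand (log2 fold change 0.22, SE 0.0694, adjusted p = 0.252). Cenpf, whose values were given above, differed by 0.24 (SE 0.0864, adjusted p = 0.358). Cenpe was at 52.7, 53.9 and 60.00 CPM and 59.9, 63.7 and 68.9 CPM (0.21, SE 0.0780, adjusted p = 0.366), and Mki67 at 179, 172 and 201 CPM and 203, 214 and 218 CPM (0.20, SE 0.0727, adjusted p = 0.350). None of these differences passed the test. With no low-count filter all 4 genes were called higher (adjusted p = 0.0398, 0.00340, 0.0154 and 0.00908), and with a replicate block Aurka was (0.0408). The highest value of each gene with ligand was found in shSrsf3 replicate 3. Over the 28 mitotic genes the median log2 fold change upon stimulation was 0.12 in shSrsf3 and 0.02 in scramble cells, and without shSrsf3 +PDGF-AA replicate 3 that in shSrsf3 cells was 0.05.

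**Figure D4:**
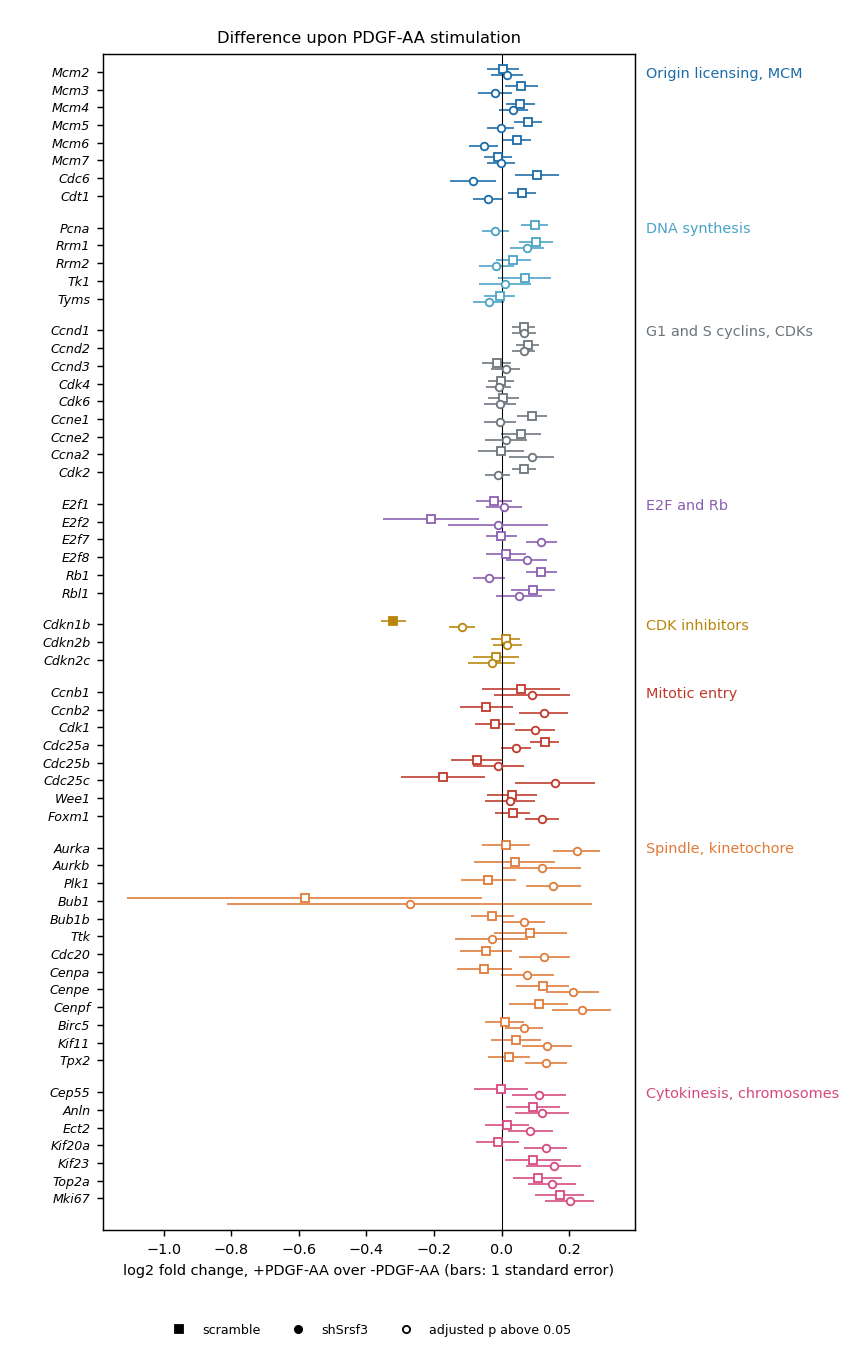
Log2 fold changes of the 59 genes between +PDGF-AA and -PDGF-AA samples (horizontal axis) in scramble cells (squares) and shSrsf3 cells (circles), grouped by role, with bars of 1 standard error and filled symbols for an adjusted p of 0.05 or less. The only filled symbol is that of Cdkn1b in scramble cells, at -0.32.

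Whether the effect of the knockdown depended on the ligand was tested by the interaction. In edgeR's test 0 of the 59 members passed (smallest adjusted p = 0.603, for Cdkn1b), where 0.0133% of all genes tested did. An unadjusted p under 0.05 was found for 2 members, Cdkn1b and Rb1, and for 833 of the 15037 genes tested. DESeq2 also called 0. For 25 of the 28 mitotic genes the log2 fold change between shSrsf3 and scramble samples was larger with ligand than without, by a median of 0.09, which rests on the same 12 samples for every gene. An effect of the ligand on the knockdown difference was therefore not detectable in these data.

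A further 141 genes of the same pathways that are not among the 59 were counted for comparison, and 140 of them were tested. Their counts are to be read beside the 22.2% of all genes tested that were higher and 23.7% that were lower without ligand, and the 20.3% and 20.7% with ligand. Of the 140, 82 were higher and 10 lower in shSrsf3 cells without ligand, and 87 and 8 with ligand, with medians of 0.21 and 0.24. Among 66 other genes of mitosis, 55 were higher without and 61 with ligand, and 0 were lower, with medians of 0.35 and 0.47. Among 32 genes of the replication fork and its supply of nucleotides and chromatin, 18 and 14 were higher and 1 and 0 lower, with medians of 0.14 and 0.13. Of 17 genes of origin recognition and firing, 4 were higher and 3 lower without ligand, and 3 and 4 with ligand, with medians of 0.06 and 0.07, which is near the share of all genes. The mitotic genes had the largest medians in both lists. Both were measured in the same 12 samples and chosen with earlier results known, so that they are not independent.

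Cdkn3, a phosphatase that acts on CDKs, was at 2.18, 3.26 and 2.70 CPM in scramble and 5.79, 5.85 and 5.88 CPM in shSrsf3 samples without ligand (log2 fold change 1.10, SE 0.133, adjusted p = 1.71e-05). With ligand, it was at 2.82, 2.13 and 2.69 and 5.88, 5.73 and 6.57 CPM (1.25, SE 0.134, adjusted p = 6.41e-06), so that it was past the 2-fold limit in both conditions and its groups did not overlap. The spindle proteins Aspm and Hmmr followed, with 0.85 and 0.82 and with 0.75 and 0.81.

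Of 25 other regulators, 5 were higher and 6 lower in shSrsf3 cells without ligand, and 9 and 4 with ligand, with medians of 0.05 and 0.06. Among them, Cdkn1c (p57Kip2), a relative of Cdkn1b, was lower past the 2-fold limit in both conditions. It was at 15.98, 16.2 and 14.3 CPM in scramble and 6.98, 7.15 and 6.85 CPM in shSrsf3 samples without ligand (log2 fold change -1.14, SE 0.0634, adjusted p = 1.02e-08), and at 14.6, 15.3 and 13.9 and 6.17, 6.66 and 6.15 CPM with ligand (-1.21, SE 0.0670, adjusted p = 1.15e-08). Rbl2 (p130), the Rb protein of resting cells, was lower, with -0.43 and -0.30 on the log2 scale, as were Mycn with -0.37 and -0.60 and Myc with -0.38 and -0.41. Lin37, a subunit of MuvB, was lower without ligand (-0.48, adjusted p = 0.00379) and differed by -0.19 with ligand (0.225). The MuvB subunit Lin54 went the other way, from 16.6, 15.9 and 15.1 CPM in scramble to 19.4, 19.7 and 19.9 CPM in shSrsf3 samples without ligand. With ligand, Lin54 was at 13.6, 13.9 and 14.9 and 20.0, 18.6 and 23.4 CPM. Lin9, a further subunit, overlapped without ligand and was at 9.17, 10.0 and 10.3 and 12.1, 12.6 and 13.3 CPM with ligand. Lower Cdkn1b without ligand and lower Cdkn1c, Rb1 and Rbl2 in both conditions hence stood beside lower Ccnd1, Cdk6, Myc and Mycn, which act in the opposite direction in G1.

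Cdkn1a (p21), the inhibitor induced by p53, differed by 0.13 without ligand (adjusted p = 0.0639) and was higher by 0.27 with ligand (0.00120). Cdkn2a, which is deleted in the embryo from which the line was made, was at 3.59, 3.06 and 3.02 CPM in scramble samples without ligand and at similar values in the other groups, with log2 fold changes of 0.03 and 0.02. Counts assigned to a gene do not show which of its exons they came from.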

How the data were processed

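Salmon (v1.4.0) was run by the authors on reads trimmed with BBDuk, against transcripts of GENCODE M26 on GRCm39, and tximport summed its estimates by gene. The authors deposited the resulting expected counts, which estimate the read pairs of each gene and of which 16.3% were not whole. The version of tximport and its scaling option are not given in the sources used here. No column was left out.

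Here, expected counts were rounded, filtered with filterByExpr (minimum count 10, by group), scaled by TMM and tested with the quasi-likelihood test of edgeR 4.0.16 (R 4.3.3) in 1 model with a mean for each of 4 groups of 3 samples, assigned by their labels. P-values were adjusted by the Benjamini-Hochberg method over all 15037 genes tested, and genes were called at 0.05 or less, with a 2-fold limit counted separately. Standard errors were derived from the fold change and its F statistic. CPM values use TMM library sizes and do not correct for gene length. Transcript lengths per sample were not used in the test either, so that a change in a gene's isoforms could alter its count. The authors reported such a splicing difference between the lines for Cep55. Replicates of 1 group differed by more than sampling noise in every pair (chi-square per degree of freedom 4.51 to 39.4). All replicates come from 1 line per shRNA, so that p-values measure the spread between cultures of a line. The alternatives were DESeq2 1.42.0, RLE size factors, no low-count filter, only the groups compared, a replicate block, equal depth, and leaving out libraries. The edgeR step was tested on simulated data.

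The 59 members and all gene lists were chosen with earlier results of these data known, and the lists are described by counts and medians with no test. Every sample's value and full statistics are given for members past the 2-fold limit, the 5 largest rises and falls among genes called in each knockdown comparison, and the 5 smallest adjusted p in each ligand comparison, and of the other pathway genes for those past the 2-fold limit, while the 3 largest called rises and falls, Cdkn1a and Cdkn2a are named with their fold changes. Further members are named with values by role, and of the other regulators Lin54, Lin9 and E2f6 are given with their values. Gene starts and transcripts come from the M39 release of GENCODE for the same GRCm39 build, and shared stretches of 31 bases from its transcripts.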

Additional observations from a re-analysis of the deposited data

How the results depend on the processing

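No member that was called changed direction under any alternative. The number of members called higher in shSrsf3 cells was 34 to 38 without ligand and 33 to 35 with ligand over the alternatives other than leaving out 1 sample, and 35 to 39 and 33 to 35 when 1 sample was left out, and the number called lower lay between 4 and 6 throughout. Without the 3 libraries of lower mapping rate, 34 members were higher and 4 lower in the absence and 34 and 6 in the presence of ligand. Members 2-fold higher with ligand were 2 at equal depth and 1 to 2 when 1 sample was left out, in place of 1. Upon stimulation of scramble cells, 1 member (Mki67) was higher with no low-count filter and 0 to 1 (Cdc25a, without scramble +PDGF-AA replicate 2) when 1 sample was left out, and upon stimulation of shSrsf3 cells 4 (Aurka, Cenpe, Cenpf and Mki67) were higher with no low-count filter and 1 (Aurka) with a replicate block, in place of 0. The causes were not tested.

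The median log2 fold change of the members, recomputed under each alternative by a choice made after seeing the data, moved by more than the replicate SD in the absence of ligand without the 3 libraries (0.22) and at equal depth (0.28), and ranged from 0.24 to 0.31 when 1 sample was left out. Among the latter, it moved by more than that SD without scramble -PDGF-AA replicate 3 (0.31) or shSrsf3 -PDGF-AA replicate 2 (0.30). With ligand the median was 0.25 without the 3 libraries and 0.25 to 0.32 when 1 sample was left out. It moved by more than the replicate SD without the 3 libraries and without scramble +PDGF-AA replicate 2 (0.25). The replicate numbers do not mark shared cultures in the labels, and deviations of samples with the same number correlated between -0.14 and 0.20 over all genes, so that they were not treated as pairs. Over the members these correlations ranged from -0.65 to 0.82, and for the knockdown with ligand all 3 were above 0.1 (0.82, 0.13 and 0.37). With the replicate block, 38 members were higher and 6 lower without and 35 and 5 with ligand.

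Over all genes, ligand calls varied more than 1.5-fold, as 301 higher and 307 lower in scramble cells became 483 and 360 with DESeq2, 638 and 651 with no low-count filter, and 154 and 93 with only the groups compared. In shSrsf3 cells 64 and 21 became 156 and 50, 232 and 142, and 142 and 59, and 152 and 79 without the 3 libraries. When 1 sample was left out, they ranged from 146 and 97 (scramble +PDGF-AA replicate 3 omitted) to 706 and 766 (scramble -PDGF-AA replicate 3 omitted) in scramble cells, and in shSrsf3 cells from 20 and 3 (shSrsf3 -PDGF-AA replicate 1 omitted) to at most 68 and 11. The 2 genes with an interaction became 24 with DESeq2 and 218 with no low-count filter. Without shSrsf3 +PDGF-AA replicate 3 there were 3 with a positive and 3 with a negative interaction. The count also rose without the 3 libraries of lower mapping rate. DESeq2 gave no adjusted p for Bub1, whose counts limit it to large differences.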
